A study of Rattus norvegicus with 12 samples.

Results

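The genes described here are 32 genes of the cardiac sarcomere and its Z-disc, out of 34322 genes in the count tables of a study of rat hearts under sorafenib. They were taken by gene symbol from a list of names, and all 32 symbols were found. That list was drawn up with earlier results of these data known. By role, 9 belong to the thin filament, 6 to the thick filament and M-band and 10 to the Z-disc, and 7 are linkers or signalling proteins attached to these structures. Sorafenib is a kinase inhibitor used against cancer, and the series names cardiotoxicity and the splicing factor RBM20 as its subject. All animals were wild-type male SD (Sprague-Dawley) rats, and RNA came from heart tissue with no cell type isolated. Rats received sorafenib by gavage at 50 mg/kg once a day, or an equal volume of deionized water, and hearts were taken after 14 or 28 days. That gave 4 groups of 3 libraries, named below by treatment, day and the number in their title. Whether 1 library stands for 1 animal is not in the labels, and p-values therefore describe library-to-library spread, which may be technical.

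The sarcomere is the contractile unit of heart muscle. Myosin in the thick filament pulls on actin in the thin filament when calcium binds troponin, and the M-band holds thick filaments in register. The Z-disc anchors the thin filaments of neighbouring sarcomeres, binds titin, and holds proteins that take part in sensing mechanical load. Genes for many of these proteins are driven in muscle by the transcription factors SRF and MEF2, whose binding sequences are called the CArG box and the MEF2 box.

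The day 14 libraries held 13746366 to 18534816 counts each. For 5 of the day 28 libraries the range was 16785038 to 26403196, but sorafenib day 28 replicate 3 held 1036483, so that there 1 count equals 0.836 CPM (counts normalised to library size, on the TMM scale used below). The 32 genes together took 3.09 to 5.13% of all counts. CPM values below were scaled over all 12 libraries with TMM factors, which adjust for a few genes taking a large share of a library. Tnnt1 was too low to be tested except within day 28, so 31 genes were tested in the other comparisons and 32 at day 28. Exons of Actc1, Tmod1, Myh7b, Myom2, Des and Xirp1 overlap a gene on the other strand, and the counting used no strand, so reads in the shared bases cannot be told apart.

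In water hearts the highest levels were those of cardiac actin, the ventricular myosin light chains and the cardiac troponins, when set per kilobase of exon, the scale on which genes can be compared. Cardiac alpha-actin, Actc1, was highest at 4650 CPM per kb on average over the 6 water libraries (range 3011 to 5836). The ventricular myosin light chains Myl3 and Myl2 followed at 4522 (3580 to 6405) and 3424 (2091 to 5410) CPM per kb, so the ranges of these leading genes overlapped. Next came the cardiac troponins: Tnnt2 at 2323, Tnni3 at 1959 and Tnnc1 at 1165 CPM per kb.

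**Figure D1:**
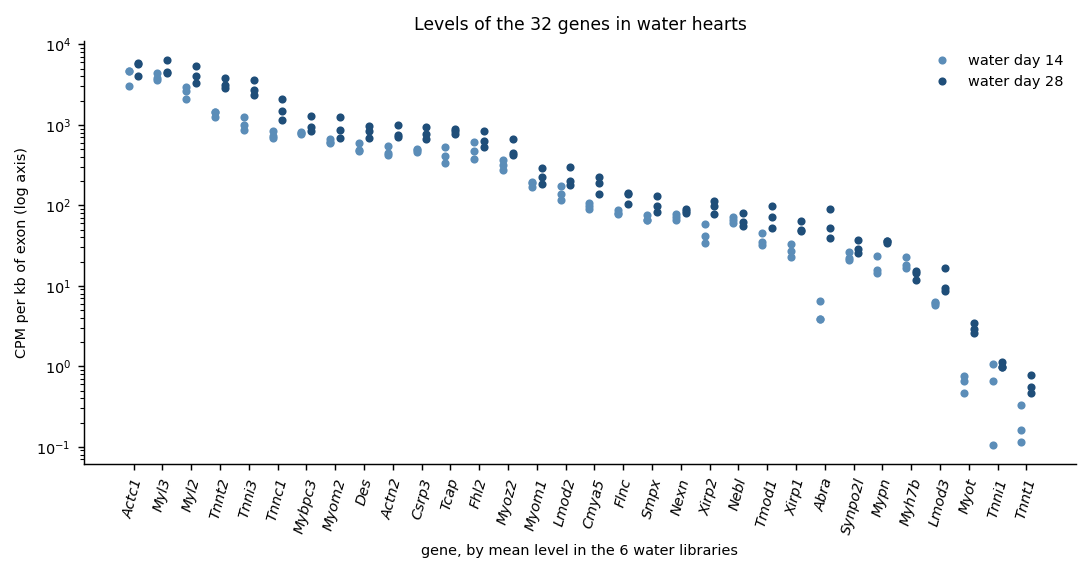
Level of each of the 32 genes in the water libraries, in CPM per kb of exon on a log axis, with genes ordered by their mean over 6 libraries and 1 point per library (light, day 14; dark, day 28). Actc1 leads at 4650 and Tnnt1 closes the order at 0.402; the day 28 points of Abra lie far above its day 14 points.

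A middle tier held the myosin-binding protein Mybpc3 (912 CPM per kb), the M-band protein Myom2 (779), the intermediate filament desmin, Des (673), and the Z-disc crosslinker Actn2 (644). The Z-disc proteins Csrp3 and Tcap lay at 635 and 633, and from Des to Tcap the ranges over water libraries overlapped. At the lower end were the slow-twitch and minor forms: Myh7b, a slow myosin heavy chain, at 16.5 CPM per kb, the nucleator Lmod3 at 8.88 and myotilin, Myot, at 1.81. The slow skeletal troponins were lowest, Tnni1 at 0.823 and Tnnt1 at 0.402 CPM per kb. Tnni1 made up at most 0.108% of troponin I in any library, counting Tnni1 and Tnni3 per length. Skeletal muscle markers summed to at most 12.9 CPM in every library, with 1 to 5 of 10 at 0, against 40098 to 95380 CPM for 8 cardiomyocyte markers.

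Averaged over both days, sorafenib hearts had more mRNA of the slow myosin Myh7b and of Tcap, and none of the other tested genes of the 32 passed the test. These 2 of 31 compare with 4.41% of all 18174 genes past the same threshold, 2% in the higher direction (edgeR quasi-likelihood test over all 12 libraries, Benjamini-Hochberg adjusted p below 0.05). Next in order of p were Actc1, lower with sorafenib, then Nexn and Smpx, none of which passed. At an unadjusted p below 0.05 there were 6 of 31, against 24.3% of all genes. The median over the 31 genes was a log2 difference of -0.05, beside -0.01 over all genes. For none of the 31 genes did all sorafenib libraries lie on the same side of all water libraries at both days, against 2.44% of all genes higher and 3.36% lower at both.

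Myh7b lies on chromosome 3 from 144076911 to 144122714 (rat assembly mRatBN7.2, plus strand). Its levels were 126, 175 and 138 CPM with water and 355, 269 and 257 CPM with sorafenib at day 14. At day 28 they were 118, 110 and 91.1 CPM with water and 208, 145 and 91.8 CPM with sorafenib. The groups were apart at day 14 and met at day 28, where sorafenib replicate 4 lay just above the lowest water library and below the others.

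The log2 difference of Myh7b over both days was 0.75 ± 0.18 (SE), a 1.68-fold level, with an edgeR adjusted p of 0.0357. Exons of Myh7b share 712 bases with Trpc4ap on the other strand, and Trpc4ap itself had a log2 difference of -0.11 ± 0.11.

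Tcap encodes telethonin, which caps titin's end in the Z-disc, and lies on chromosome 10 from 83381719 to 83382887 on the plus strand. Its levels were 525, 406 and 329 CPM with water and 690, 865 and 957 CPM with sorafenib at day 14. At day 28 they were 826, 759 and 874 CPM with water and 1559, 662 and 1734 CPM with sorafenib. All sorafenib libraries were above all water libraries at day 14, while at day 28 the shallow replicate 3 lay below the water libraries and the others far above. Tcap's log2 difference was 0.84 ± 0.21 (SE), or 1.79-fold, with an edgeR adjusted p of 0.0407. Without the shallow library the difference of Tcap was 1.02 ± 0.14 with an adjusted p of 0.00636, and Myh7b had 0.78 ± 0.20 with 0.0467.

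Both calls sat near the threshold. With 1 library left out at a time, edgeR kept Myh7b past it in 3 of 12 fits (without water day 28 replicate 2, sorafenib day 28 replicate 3 or sorafenib day 28 replicate 4). Tcap stayed past it in 4 of 12, without water day 14 replicate 2, sorafenib day 14 replicate 5, or sorafenib day 28 replicate 3 or 4. Their log2 differences stayed positive in each of those fits.

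Actc1, the main actin of the adult heart, lies on chromosome 3 from 100811987 to 100817523 on the minus strand. Its levels were 4484, 6921 and 6905 CPM with water and 2326, 4099 and 4593 CPM with sorafenib at day 14. At day 28 they were 6005, 8535 and 8690 CPM with water and 4290, 3137 and 6041 CPM with sorafenib. At each day the highest sorafenib library just exceeded the lowest water library. The log2 difference over both days was -0.76 ± 0.23 (SE), or 0.591-fold, with an edgeR adjusted p of 0.0662, so it did not pass, whereas DESeq2 gave an adjusted p of 0.00644. Reads from actin paralogs such as Acta1 can be hard to assign. A locus on the other strand that shares 4 exon bases, LOC100910676, had a difference of -1.22 ± 0.24 and did pass (edgeR adjusted p 0.0205).

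Nexn, an actin-binding protein of the Z-disc, had 250, 276 and 301 CPM with water and 354, 312 and 422 CPM with sorafenib at day 14. At day 28 Nexn had 304, 325 and 342 CPM with water and 360, 318 and 433 CPM with sorafenib. The groups were apart at day 14 and overlapped at day 28. Its difference was 0.30 ± 0.12 with an edgeR adjusted p of 0.153, and 0.0396 with DESeq2, which called 4 of 31 (Actc1, Myh7b, Nexn and Tcap) against 10.4% of all genes. Smpx, a small muscle protein linked to the cytoskeleton, had 156, 154 and 180 CPM with water and 94.9, 144 and 174 CPM with sorafenib at day 14, then 195, 235 and 307 CPM against 157, 83.6 and 203 CPM at day 28. Its groups overlapped at both days, and the difference was -0.48 ± 0.20 with an edgeR adjusted p of 0.16.

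**Figure D2:**
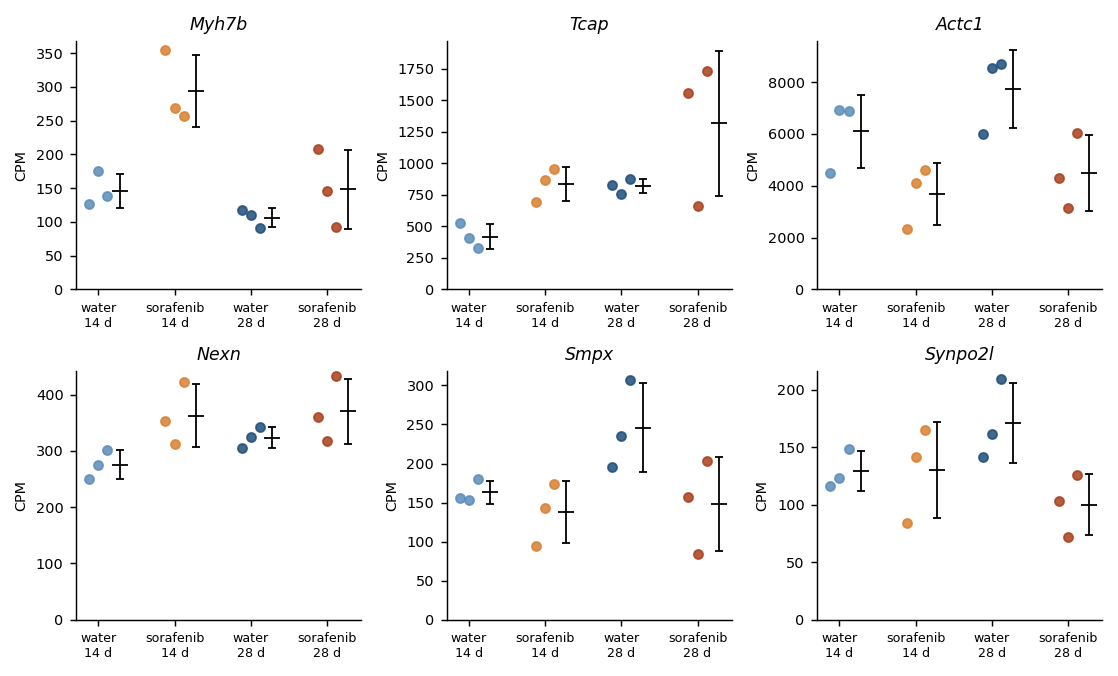
CPM in each library for 6 of the genes by group, with 1 point per library and the mean and SD beside the points; all axes start at 0. Myh7b and Tcap are higher with sorafenib in all 3 libraries of day 14, and Actc1 is lower on average at both days with 1 library in contact.

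Since Tcap and Actc1 went opposite ways, their ratio within a library was set out after these values had been seen, as a description with no test. Per kb of exon, Tcap over Actc1 was 0.178, 0.0893 and 0.0724 with water and 0.451, 0.321 and 0.317 with sorafenib at day 14. At day 28 it was 0.209, 0.135 and 0.153 with water and 0.553, 0.321 and 0.437 with sorafenib. All 6 sorafenib libraries thus lay above all 6 water libraries, the shallow one included. Set against the summed CPM of 6 cardiomyocyte markers that are not among the 32 genes (Myh6, Ryr2, Pln, Atp2a2, Ckm and Mb), Actc1 alone also separated the treatments, with sorafenib lower. It was 9.31 to 13.1% of that sum in the 6 water libraries and 6.57 to 8.15% in the 6 sorafenib libraries. How often other genes or ratios separate the treatments on these scales was not counted, so neither separation can be called unusual. With libraries scaled to those markers, a choice also made after the data were seen, Actc1 had a log2 difference of -0.63 ± 0.10 and an edgeR adjusted p of 0.0442. Under that scaling Tcap had 0.95 ± 0.17 with 0.0592 and Myh7b 0.96 ± 0.28 with 0.177, while the median of all genes moved to 0.14 and 0.0385% of them passed.

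At day 14 alone no gene passed; 21 of 31 differences were positive and 10 negative. edgeR called 0 of 31 genes (percent of all 17406 genes called, 0%). At an unadjusted p below 0.05 there were 4 (Myh7b, Tcap and Nexn higher, Actc1 lower), against 14% of all genes, and DESeq2 called Myh7b and Tcap, against 2.6%. The log2 differences were 1.01 ± 0.19 for Myh7b (edgeR adjusted p 0.107), 1.00 ± 0.21 for Tcap (0.134), 0.40 ± 0.17 for Nexn (0.33) and -0.73 ± 0.30 for Actc1 (0.33). Xirp1, a repeat protein that binds actin at cell junctions, came next at 0.38 ± 0.18 (adjusted p 0.386). It had 258, 216 and 310 CPM with water against 287, 345 and 386 CPM with sorafenib, which overlapped.

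By role, 9 of 10 Z-disc genes and 5 of 6 thick filament and M-band genes had positive differences at day 14, with medians of 0.24 and 0.20. The thin filament had 3 of 8 positive with a median of -0.04, and the linkers 4 of 7 with 0.07. Libraries did not overlap for 4 of 31 genes, Tnnt2, Myh7b, Tcap and Nexn, all higher with sorafenib, against 10.5% of all genes, and for 0 all lower, against 10.3%. The median over all 31 genes was 0.09, beside 0.00 for all genes tested. It became 0.29 without sorafenib replicate 5 and -0.05 without sorafenib replicate 7, so single libraries set its sign.

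At day 28 most of the genes had a lower mean with sorafenib, and none passed the test. edgeR called 0 of 32 genes (percent of all 17021 genes called, 0%), and DESeq2 called 0 against 1.62%. At an unadjusted p below 0.05 there were 4, against 14.9% of all genes. Synpo2l, a Z-disc protein of the synaptopodin family, had 141, 162 and 209 CPM with water and 103, 71.9 and 125 CPM with sorafenib, with no overlap. Its log2 difference was -0.71 ± 0.21 (edgeR adjusted p 0.218). The others were Actc1 at -0.75 ± 0.30 (0.301), Smpx at -0.68 ± 0.28 (0.307) and Tcap at 0.72 ± 0.31 (0.321). Nebl, the cardiac nebulin relative nebulette of the Z-disc, came next at -0.56 ± 0.26 (0.35), with 708, 783 and 1016 CPM with water and 544, 363 and 751 CPM with sorafenib.

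Differences were negative in 24 of 32 genes at day 28, with a median of -0.19 beside 0.00 over all genes. The 8 cardiomyocyte markers, which include Tnnt2 and Myl2 of the 32 genes, were all negative too, with a median of -0.21. By role, differences of the 32 genes were negative in 7 of 9 thin filament genes, 5 of 6 thick filament and M-band genes, 7 of 10 Z-disc genes and 5 of 7 linkers. Without the shallow sorafenib replicate 3 the median was 0.01 with 15 genes negative, and without water replicate 4 it was -0.03 with 18 negative. Libraries did not overlap for Myot and Synpo2l, both lower, against 11.6% of all genes, and for 0 all higher, against 9.81%. Myot had 6.73, 7.93 and 5.87 CPM with water and 4.72, 2.51 and 4.52 CPM with sorafenib.

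**Figure D3:**
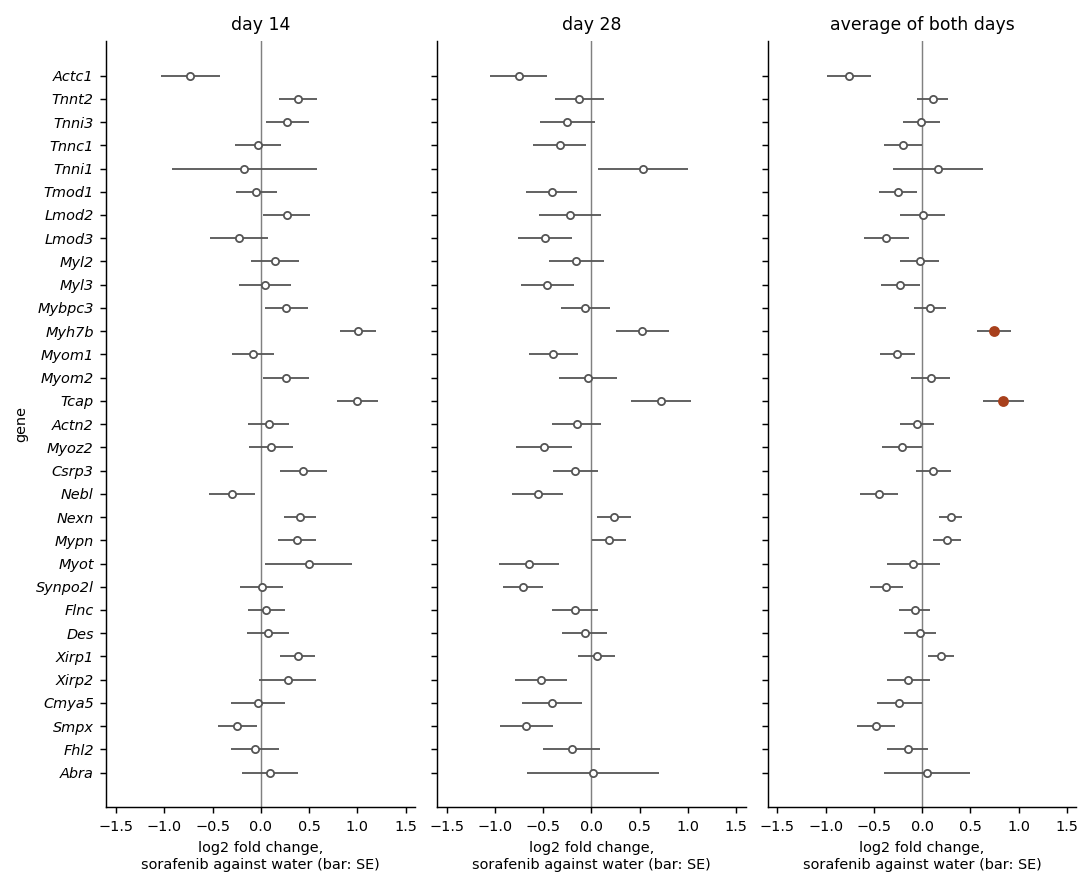
Log2 fold change of sorafenib against water with its SE for 31 of the genes, ordered by role, at day 14, at day 28 and averaged over both days (edgeR); filled points passed the threshold. Myh7b and Tcap stand to the right and Actc1 to the left in all 3 panels, and only the averages of Myh7b (0.75) and Tcap (0.84) passed.

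The difference between the days was tested directly, as the sorafenib effect at day 28 minus that at day 14. edgeR called 0 of 31 genes (percent of all 18174 genes called, 0%), and DESeq2 called 0 of them against 0.0495% of all genes. At an unadjusted p below 0.05 there was 1, Synpo2l, at -0.75 ± 0.35 (edgeR adjusted p 0.999), against 4.42% of all genes. It was followed by Myot at -1.17 ± 0.55, Xirp2 at -0.83 ± 0.45, Tnnt2 at -0.54 ± 0.32 and Csrp3 at -0.64 ± 0.37. Of the 31 genes, 30 had a negative difference between the days, and the median was -0.35 beside -0.02 over all genes, of which 52.1% were negative. Leaving out 1 library gave medians from -0.54 to -0.14 (the latter without sorafenib day 28 replicate 3), with at least 26 genes negative. Cardiomyocyte markers, which include Tnnt2 and Myl2 of the 31 genes, had 8 of 8 negative (median -0.30) and smooth muscle markers 6 of 6 (median -0.58). Both days' effects draw on the libraries described next, in which most of the genes lay high or low together.

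Within a group, most of the genes were high or low in the same libraries. Sorafenib day 14 replicate 5 was the lowest of its 3 libraries for 26 of 31 genes, and sorafenib day 28 replicate 3 for 28 of 31. Counts of ribosomal RNA (Rn45s) were 0.842% of the total in the first of these and 1.64% in the second, 1.25% in sorafenib day 28 replicate 2, and 0.0977 to 0.537% in the other libraries. Mitochondrial ribosomal RNA (mt-Rnr2) was 1.31% in sorafenib day 28 replicate 2 and 0.0244 to 0.205% elsewhere. The part of either in the results was not tested. Water day 28 replicate 4 was the highest of 3 for 27 of 31, and water day 14 replicate 7 for 25 of 31. Summed over the 32 genes, the levels were 30150 to 37404 CPM (water day 14), 25533 to 41045 (sorafenib day 14), 42743 to 64160 (water day 28) and 30640 to 53183 (sorafenib day 28), so the groups of each day overlapped. The median coefficient of variation over the genes was 14.1% and 20.5% in the water groups of days 14 and 28, and 29.1% and 29.3% in the sorafenib groups. Myh7b did not follow this order, since it was highest of its 3 in the low library sorafenib day 14 replicate 5, whereas Tcap was lowest of 3 in both low sorafenib libraries.

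**Figure D4:**
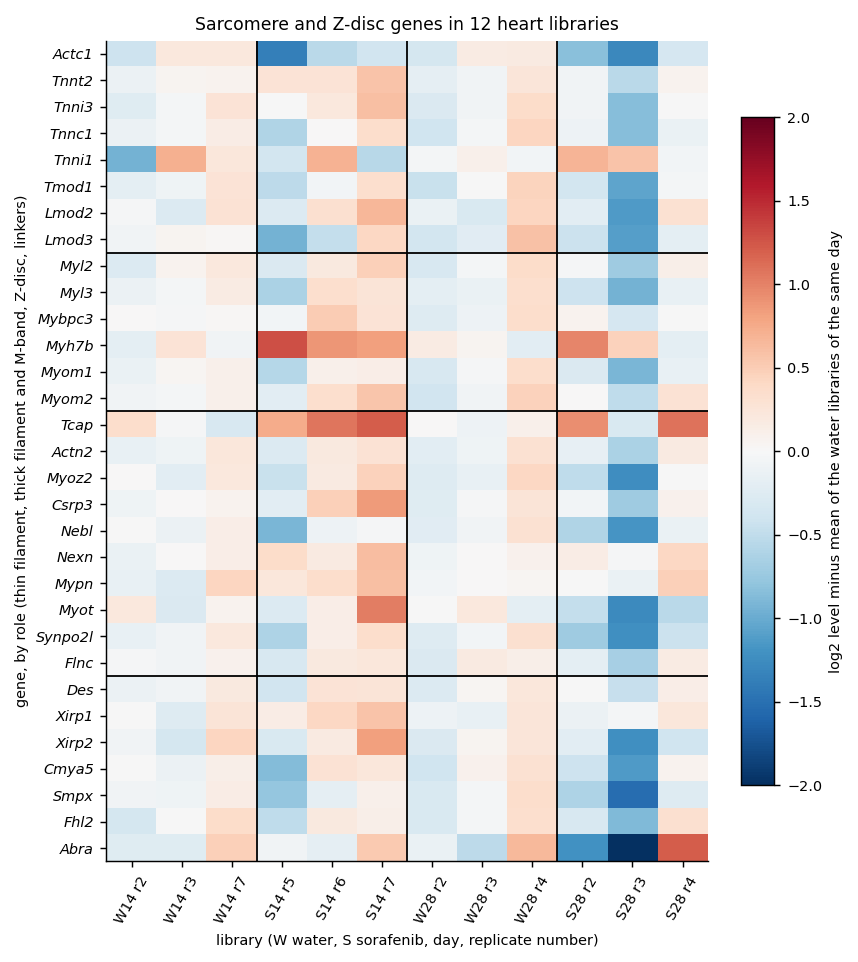
Log2 level of 31 genes in each of 12 libraries minus its mean in that day's 3 water libraries (rows by role, columns by group; colour from -2 to 2, values beyond are shown at the end of the scale). Columns S14 r5 and S28 r3 are blue for most genes, while the rows of Myh7b and Tcap are mostly red under sorafenib and that of Actc1 blue.

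Markers of heart muscle cells followed the same libraries. The 6 cardiomyocyte markers outside the list summed to 35414 CPM in sorafenib day 14 replicate 5 and 41336 in sorafenib day 28 replicate 3, against 48137 to 83944 in the other libraries. Because whole tissue was used, fewer cells of a type and less RNA per cell cannot be told apart. Of the 8 fixed cardiomyocyte markers, which include Tnnt2 and Myl2, 0 passed over both days, with sums of 40098 to 64400 CPM at day 14 and 47335 to 83984 at day 28 under sorafenib. With water these sums were 52263 to 62739 and 63270 to 95380 CPM.

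Other cell types also differed, and their part in the results was not tested. Of 6 myeloid markers, C1qa, C1qb and Cybb were lower over both days, and the list summed to 102 to 178 CPM with water and 56.8 to 125 with sorafenib. Fibroblast markers had 1 of 6 lower (Lum), at 2751 to 4306 CPM with water and 1570 to 4462 with sorafenib, the highest sum being that of sorafenib day 28 replicate 3. Endothelial markers had 1 of 6 lower (Kdr), at 1298 to 1621 against 1167 to 1555 CPM. Atrial markers had 2 of 6 lower (Sln and Dkk3), at 154 to 422 against 137 to 384 CPM, with at most 1 at 0. Differences of that list were positive in 3 and negative in 3, and Sln was at most 4.58 CPM. Nppa did not pass over both days. It had 11.2, 20.7 and 12.6 CPM with water and 64.7, 37.7 and 212 CPM with sorafenib at day 14, without overlap, as for 10.5% of all genes higher. Its groups overlapped at day 28. The atrial light chain Myl7 varied widely within groups, from 0.261 to 84.3 CPM in water day 14 and from 4.18 to 165 CPM in sorafenib day 28. Smooth muscle markers had 0 of 6 past the threshold, at 402 to 653 against 446 to 606 CPM, and skeletal muscle markers 0 of 5 tested. At day 14 the smooth muscle markers had 4 of 6 at an edgeR unadjusted p below 0.05, all higher, against 14% of all genes. Their other 2 differences were negative. The median of their log2 differences was 0.70 at day 14 and 0.09 at day 28.

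Among 40 further sarcomere genes on a fixed list, the slow myosin heavy chain Myh7 alone passed over both days, of 39 tested. Myh7 had 1739, 1456 and 1263 CPM with water and 2903, 3120 and 5509 CPM with sorafenib at day 14. At day 28 it had 4701, 4572 and 6850 CPM with water and 5958, 6057 and 8520 CPM with sorafenib. The groups were apart at day 14 and overlapped at day 28, and the log2 difference was 0.86 ± 0.21 (edgeR adjusted p 0.0375). Leaving out 1 library kept that call in 5 of 12 fits. Titin, Ttn, had -0.16 ± 0.22 and the fast myosin Myh6 -0.04 ± 0.22, and neither passed. Over the alternatives Ttn ranged from -0.58, with the trend of counts with gene length removed, to -0.0023, with the scaling to cardiomyocyte markers.

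Within day 14, none of the 38 tested passed, and Myh7 (1.38 ± 0.28, edgeR adjusted p 0.132) and the ubiquitin ligase Trim54 (0.70 ± 0.17, 0.152) had the smallest p. Within day 28, none of 39 passed, and the M-band gene Myom3 (-0.70 ± 0.25, 0.275) and the methyltransferase Smyd1 (-0.65 ± 0.25, 0.293) came first. At an edgeR unadjusted p below 0.05 there were 5 of 38 genes at day 14 and 3 of 39 at day 28, against 14% and 14.9% of all genes. For the difference between days Myh7 (-1.02 ± 0.41) and the actin-anchoring Nrap (-0.84 ± 0.34) came first, both with an edgeR adjusted p of 0.999.

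Of 20 regulators of sarcomere transcription on a fixed list, 3 were lower with sorafenib over both days and 0 higher, while 2.41% of all genes were lower. SRF's gene, Srf, had 56.7, 84.4 and 91 CPM with water and 32.3, 48.8 and 50.2 CPM with sorafenib at day 14, then 80.6, 104 and 106 CPM against 59.4, 81.1 and 64.2 CPM. Its groups were apart at day 14 and overlapped slightly at day 28, and the difference was -0.68 ± 0.15 (edgeR adjusted p 0.029).

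Mef2a, which encodes a MEF2 protein of heart muscle, had 217, 265 and 263 CPM with water and 138, 164 and 171 CPM with sorafenib at day 14. At day 28 Mef2a had 200, 220 and 265 CPM against 121, 135 and 192 CPM. Tead1, a factor that binds the MCAT element of muscle genes, had 464, 501 and 595 CPM with water and 214, 370 and 403 CPM with sorafenib at day 14. At day 28 it had 487, 564 and 668 CPM against 281, 283 and 429 CPM. For both genes every sorafenib library lay below every water library of its day, as for 3.36% of all genes.

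The differences were -0.63 ± 0.13 for Mef2a (edgeR adjusted p 0.0251) and -0.72 ± 0.17 for Tead1 (0.0377). With 1 library left out, Mef2a passed in 7 of 12 fits, Srf in 6 and Tead1 in 4, each with the same sign throughout. The calls of Myh7b, Tcap, Myh7, Srf, Mef2a and Tead1 were all lost without water day 14 replicate 3, sorafenib day 14 replicate 6, water day 28 replicate 3 or sorafenib day 28 replicate 2. With libraries scaled to cardiomyocyte markers, Srf (-0.48), Mef2a (-0.46) and Tead1 (-0.58) did not pass, while Myh7 did (1.02, edgeR adjusted p 0.0418). Rbm20, the splicing regulator of titin named in the study's title, was at 0.00 ± 0.13. Within either day 0 of the 20 passed with edgeR, and at an unadjusted p below 0.05 there were 4 at day 14, against 14% of all genes, and 6 at day 28, against 14.9%. The smallest p were those of Mef2a (-0.65 ± 0.15, edgeR adjusted p 0.15) and Srf (-0.82 ± 0.21, 0.17) at day 14, and of Tead1 (-0.75 ± 0.22, 0.212) and Mef2a (-0.58 ± 0.20, 0.264) at day 28. For the difference between days Hand2 (-0.85 ± 0.37) and Mef2d (-0.34 ± 0.23) came first, without passing (0.999).

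**Figure D5:**
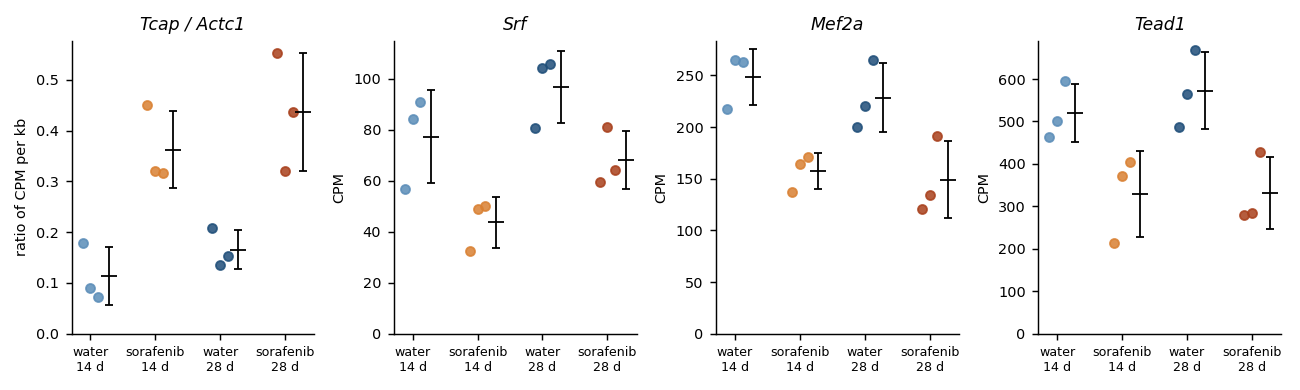
Per library, the ratio of Tcap to Actc1 (CPM per kb over CPM per kb) and the CPM of Srf, Mef2a and Tead1, by group with mean and SD; axes start at 0. The ratio lies at 0.0724 to 0.209 in the water libraries and 0.317 to 0.553 in the sorafenib libraries, and Mef2a and Tead1 are lower under sorafenib at both days without overlap.

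Srf and Mef2a were among the regulators that passed, while Mef2c (-0.34 ± 0.13) and Mef2d (-0.09 ± 0.12) did not. The promoters of the 32 genes were searched for CArG and MEF2 boxes, as a description of sequence. RefSeq windows from 250 bases before to 50 after the start (assembly GRCr8) were at hand for 25 of the 32 genes, in 30 windows. Both strands were searched for the CArG box and the MEF2 box, for TATAAA, for the MCAT core CATTCC and for the GATA factors' AGATAA. A CArG box was found in 5 of 30 windows, of Actc1, Fhl2, Myl3 and Nebl, against 1.64% of 33469 windows of all genes. A MEF2 box was found in 8 of 30, of Fhl2, Mybpc3, Myoz2, Smpx, Synpo2l, Xirp1 and Xirp2, against 3.29%. For TATAAA the figures were 3 of 30 and 14.2%, for CATTCC 6 of 30 and 14.2%, and for AGATAA 7 of 30 and 11.6%. Windows of Xirp1 overlap and share the same MEF2 box and the same AGATAA, so these sites are counted more than once. By gene, a MEF2 box was found in 7 of 25 and AGATAA in 6 of 25.

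Some of the windows are shown as examples. The first 4 sequences carry a CArG box and the next 2 a MEF2 box. Myh7b, which was higher, carries neither in its window, and Tcap has no window. Not shown are Nebl (CArG box) and Mybpc3, Myoz2, Xirp1 and Xirp2 (MEF2 box). Genes with neither box in their windows had both signs over both days, such as Tmod1 (-0.25) and Tnnt2 (0.11). Whether the boxes bear on the changes was not tested. Each is written 5′ to 3′ on the gene's strand up to the base before the start, except that of Actc1, which gives 30 bases around a box lying 3 to 12 bases into the transcript. Capitals mark the boxes. The MEF2 box of Fhl2, a LIM protein that binds titin and transcription factors, overlaps a TATAAA match on the other strand.
Actc1, chr3:121271806-121271835, minus strand: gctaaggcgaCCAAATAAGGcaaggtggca
Myl3, chr8:119616844-119617093, plus strand: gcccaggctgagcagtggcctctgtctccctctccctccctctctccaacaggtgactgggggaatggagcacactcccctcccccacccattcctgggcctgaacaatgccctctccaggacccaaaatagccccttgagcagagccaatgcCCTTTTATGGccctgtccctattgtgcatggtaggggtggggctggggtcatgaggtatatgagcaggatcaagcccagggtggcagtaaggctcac
Fhl2 (first start), chr9:52954541-52954790, minus strand: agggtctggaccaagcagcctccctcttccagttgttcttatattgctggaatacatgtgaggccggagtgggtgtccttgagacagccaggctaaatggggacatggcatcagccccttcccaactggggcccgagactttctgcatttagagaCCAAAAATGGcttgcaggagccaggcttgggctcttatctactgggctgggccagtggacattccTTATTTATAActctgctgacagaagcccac
Fhl2 (other start), chr9:52923327-52923576, minus strand: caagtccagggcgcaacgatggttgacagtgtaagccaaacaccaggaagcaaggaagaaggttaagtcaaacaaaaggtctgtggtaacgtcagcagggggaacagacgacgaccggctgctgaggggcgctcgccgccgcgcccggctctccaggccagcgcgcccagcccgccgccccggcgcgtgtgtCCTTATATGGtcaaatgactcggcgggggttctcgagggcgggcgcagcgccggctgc
Smpx, chrX:41107138-41107387, minus strand: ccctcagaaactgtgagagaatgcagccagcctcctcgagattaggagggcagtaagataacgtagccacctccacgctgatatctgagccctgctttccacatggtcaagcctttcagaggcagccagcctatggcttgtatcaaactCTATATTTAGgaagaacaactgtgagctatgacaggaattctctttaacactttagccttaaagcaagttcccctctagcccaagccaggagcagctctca
Synpo2l, chr15:3684760-3685009, plus strand: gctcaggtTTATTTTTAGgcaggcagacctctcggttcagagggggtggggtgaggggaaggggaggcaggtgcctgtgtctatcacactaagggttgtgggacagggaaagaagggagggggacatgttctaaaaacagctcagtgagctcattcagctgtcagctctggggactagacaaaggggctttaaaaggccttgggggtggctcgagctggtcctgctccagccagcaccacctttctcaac
Myh7b, chr3:164558090-164558339, plus strand: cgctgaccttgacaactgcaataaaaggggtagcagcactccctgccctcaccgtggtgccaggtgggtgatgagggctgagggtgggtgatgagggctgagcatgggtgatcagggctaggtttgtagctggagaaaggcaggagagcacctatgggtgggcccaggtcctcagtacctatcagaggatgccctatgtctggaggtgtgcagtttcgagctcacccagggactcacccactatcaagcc

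Over both days, differences were negative for the 4 genes with a CArG box and of either sign with a MEF2 box. Of all 31 genes tested, 19 were negative. The 4 genes with a CArG box had -0.76 for Actc1, -0.45 ± 0.20 for Nebl, -0.23 ± 0.20 for Myl3 and -0.15 ± 0.21 for Fhl2, and none passed. Of those with a MEF2 box, Smpx and Synpo2l had -0.48 and -0.37 ± 0.17, Myoz2 -0.21 ± 0.21, Xirp2 -0.14 ± 0.22, Mybpc3 0.08 ± 0.17 and Xirp1 0.20 ± 0.14, and none passed either. Fhl2, given above, also carries a MEF2 box. A match of letters does not show that a factor binds there.

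Between the water groups, sarcomere genes were widely higher at day 28 than at day 14. edgeR called 16 of 31 higher and 0 lower, against 6.92% of all 17210 genes higher, 2.63% lower and 9.55% in either direction. Libraries did not overlap for 24 of 31 genes higher, against 17.7% of all genes, and for 1 lower, Myh7b, against 16.1%. At an unadjusted p below 0.05 there were 23, against 27.7% of all genes, and DESeq2 called 21, against 17.1%. The median log2 difference was 0.70 beside -0.05 for all genes. Each day has its own count table, so the day and any difference in handling between days cannot be told apart.

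Abra, an actin-binding protein that promotes SRF signalling, differed most. Its levels were 4.9, 4.94 and 8.41 CPM at day 14 and 66.3, 50.2 and 114 CPM at day 28, a log2 difference of 3.64 ± 0.36 or 12.5-fold (edgeR adjusted p 0.00273). Under sorafenib Abra was at 5.58, 5.17 and 8.66 CPM at day 14 and at 31, 17.6 and 169 CPM at day 28, so its spread at day 28 was wide. Myot had 1.72, 1.07 and 1.52 CPM against 6.73, 7.93 and 5.87 CPM, a difference of 2.24 ± 0.30 (0.00443). Neither gene's water groups overlapped between the days.

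The troponin complex, which makes the thin filament respond to calcium, was higher in all 3 of its cardiac subunits. Tnni3, the inhibitory subunit, had 888, 1026 and 1268 CPM at day 14 and 2367, 2729 and 3700 CPM at day 28 (1.45 ± 0.21, edgeR adjusted p 0.00575). Tnnt2, which binds tropomyosin, had 1798, 2035 and 2057 CPM against 4049, 4383 and 5416 CPM (1.22 ± 0.17, 0.0046). Tnnc1, the calcium-binding subunit, had 629, 661 and 755 CPM against 1060, 1370 and 1895 CPM (1.06 ± 0.21, 0.0169). None of the 3 overlapped between the days.

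The remaining thin filament calls were the pointed-end cap Tmod1 (0.96 ± 0.22, edgeR adjusted p 0.0287) and Lmod3 (0.91 ± 0.24, 0.0461). Tmod1 had 89.9, 97.1 and 125 CPM against 146, 198 and 270 CPM, and Lmod3 13.4, 14.7 and 14.3 against 19.9, 21.9 and 39 CPM, without overlap. Actc1, at 0.33 ± 0.23, did not pass (adjusted p 0.384). None of the 6 thick filament and M-band genes passed, with differences from -0.47 for Myh7b to 0.73 for Myl2.

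Of the Z-disc genes, 6 of 10 were higher. Tcap had 0.95 ± 0.18 (edgeR adjusted p 0.0144) and its water levels, given above, did not overlap. Mypn, which links nebulin-family proteins to alpha-actinin, had 83.6, 76.6 and 125 CPM against 181, 189 and 193 CPM (0.97 ± 0.18, 0.0155). Csrp3, a LIM protein of the load-sensing machinery, had 422, 451 and 469 CPM against 613, 716 and 870 CPM (0.70 ± 0.15, 0.0243). Actn2, alpha-actinin, had 1255, 1307 and 1618 CPM against 2053, 2223 and 2912 CPM (0.77 ± 0.18, 0.0339), and filamin C, Flnc, 742, 724 and 805 against 958, 1323 and 1264 CPM (0.63 ± 0.16, 0.0388). With Myot these make up the 6, and all lacked overlap.

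Of the linkers, 5 of 7 were higher: Abra, Xirp1, Xirp2, Cmya5 and Des. Xirp1 had 258, 216 and 310 CPM against 468, 451 and 596 CPM (0.93 ± 0.17, edgeR adjusted p 0.0143). Xirp2, its relative at the intercalated disc, had 496, 408 and 707 against 932, 1186 and 1353 CPM (1.09 ± 0.22, 0.0209). Cmya5, a large protein that binds desmin and alpha-actinin, had 1225, 1136 and 1337 against 1709, 2400 and 2801 CPM (0.88 ± 0.19, 0.0242), and Des had 1023, 1057 and 1275 against 1475, 1830 and 2095 CPM (0.67 ± 0.17, 0.0427). None of these overlapped between the days.

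The 6 cardiomyocyte markers summed to 48137 to 57432 CPM at day 14 and 55486 to 83944 at day 28 under water, and 1 of them, Ckm, was itself higher (1.00 ± 0.18, edgeR adjusted p 0.0136). Smooth muscle markers were higher in 4 of 6 (Myh11, Acta2, Tagln and Cnn1), with sums of 402 to 486 CPM at day 14 and 580 to 653 at day 28, and their part in the result was not tested. With libraries scaled to the 6 cardiomyocyte markers, 7 of the 16 genes stayed past the threshold: Abra, Cmya5, Myot, Tnnc1, Tnni3, Tnnt2 and Xirp2. Their log2 differences were then 0.51 to 3.27, while the median over all genes moved to -0.38 and the share of calls that were higher moved from 72.5 to 36%. Leaving out 1 library at a time, Abra, Myot, Tnni3 and Tnnt2 passed in all 6 fits, and the number of the genes called ranged from 4 without water day 14 replicate 3 to 20 without water day 28 replicate 2. It was 5 without water day 14 replicate 2 and 8 without water day 28 replicate 3.

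On the list of further sarcomere genes, 13 of 38 were higher at day 28 and 0 lower, against 6.92% and 2.63% of all genes. Myh7 (1.84 ± 0.21, edgeR adjusted p 0.00289), the titin-binding Ankrd23 (1.80 ± 0.17, 0.0024), Trim54 (1.66 ± 0.18, 0.00273) and the load-responsive Ankrd1 (1.45 ± 0.19, 0.00406) led them. Also higher were the co-chaperone Bag3, the small heat shock protein Cryab, Nrap, Tpm1, Synpo2, Neb, Pdlim3 and Ldb3, with differences of 0.60 to 1.41. Of the regulators, Tbx5 alone was higher (0.91 ± 0.12, 0.00449), and Ttn, Myh6 and Rbm20 did not pass at 0.23 ± 0.23, 0.39 ± 0.24 and -0.11 ± 0.17.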

How the data were processed

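Heart RNA for 12 libraries was depleted of ribosomal RNA and built with a strand-marking kit, per the labels. The deposited values are raw counts of reads per gene, which the authors obtained from featureCounts 2.0.1 with a RefSeq mRatBN7.2 annotation and no strand option, per the file headers. Per the submitters' processing notes the aligner was STAR, whose version they do not name. In the day 14 table, 2 columns match no sample and were not used.

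All genes' counts went through edgeR 4.0.16 under R 4.3.3 (filterByExpr, TMM, robust quasi-likelihood, Benjamini-Hochberg threshold 0.05). SE is the log2 difference over the root of F. Alternatives tried were 1.42.0 of DESeq2, no filter or a filter of 1 CPM in 3 libraries, RLE factors, non-robust dispersion, a lowess correction for gene length (span 0.3), 1 fit of all groups, the replicate block and each library left out, and, added after seeing the data, scaling to cardiomyocyte markers. Log2 levels in the colour plot used a prior of 0.5 CPM.

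The genes, lists and comparisons were chosen with earlier results of these data known. Described in full were genes past the threshold and, where fewer than 5 passed, the 5 of smallest p; other lists by their calls or 2 of smallest p, plus Ttn, Myh6, Myh7 and Rbm20. From the list of further sarcomere genes, 1 gene is not reported here. On simulated counts, 2-fold changes were called in 55.1% of cases at day 14 (17041 genes), 37.1% at day 28 (16691) and 75.7% over both days (17791), and 1.5-fold changes in 7.23, 1.2 and 27.7%. For the difference between days (17796 genes) 7.14% of 2-fold changes were called, and between the water groups (16914) 54.3%. Unchanged genes were called too: 13 at day 14, 6 at day 28, 3 over both days and 6 between the water groups. In the deposited counts at day 14, 0 of 17406 genes were called, with Myh7b at 2.02-fold and Tcap at 2.00-fold. Whether these percentages hold where many genes shift together by library, as described above, was not tested. No replicate pair agreed within sampling noise (smallest chi-square per gene 8.07).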

Additional observations from a re-analysis of the deposited data

How the results depend on the processing

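With edgeR's adjusted p as the threshold, the counts of called genes among the 32 changed as follows. At day 14 DESeq2 and the fit with no filter called 2 each in place of 0. Over both days DESeq2 called 4, scaling to cardiomyocyte markers 1 (Actc1) and the replicate block 0, in place of 2, and leaving out 1 library gave 0 to 3. Between the water groups the scaling called 7 and the fit of all 12 libraries 9, in place of 16, and leaving out 1 library gave 4 to 20. The median there was 0.34 under the scaling, in place of 0.70. At day 28 and for the difference between days every alternative called 0. The replicate block called 0 at day 28 and 19 between the water groups. Whether the numbers in the titles pair the libraries of a day was not settled. A heart was taken at 1 day only, so across days a shared number is not a shared animal. Between the water groups only numbers 2 and 3 occur at both days, and the block there rested on them. Same-numbered libraries of day 28 had correlations of 0.0944, 0.0240 and 0.252, and different-numbered ones had -0.252 to 0.116. Over all genes at day 28, edgeR with the replicate block called 108, in place of 0. No paired analysis was possible within day 14 because its groups share only 1 number. The replicate block over both days, and for the difference between days, is limited in the same way. Numbers 5 and 6 occur only in sorafenib day 14, so the day 14 effect in those fits rested on the libraries numbered 7. Their calls are therefore no check of the main fit at equal sample size.

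Among the genes tracked over all alternatives (those past a threshold or of smallest p, with Ttn, Myh6, Myh7 and Rbm20), signs turned for Myh6, Rbm20 and Ttn, which did not pass. Over both days Myh6 had 0.00310 with the filter of 1 CPM, 0.12 with the scaling and -0.12 to 0.0898 in leave-one-out fits. Rbm20 had -0.0821 with the length trend removed, -0.0795 with the replicate block and -0.0518 to 0.0848 in leave-one-out fits. Between the water groups Rbm20 had 0.10 with the length trend removed and -0.261 to 0.0234 in leave-one-out fits, and Ttn had -0.12 with the scaling and 0.99 with the length trend removed, against 0.23. Over all genes, counts of calls over both days ranged from 7 (the scaling) and 38 (the replicate block) to 1822 (DESeq2), and from 35 (without sorafenib day 28 replicate 2) to 1562 (without sorafenib day 28 replicate 4) in leave-one-out fits, against 801; the share higher was 57.1, 34.2 and, with the 1 CPM filter, 54.6%, against 45.3%. The cause of these changes was not tested. Depth limits the low genes, as 1 count in sorafenib day 28 replicate 3 is 0.836 CPM, and gene counts hold no information on splicing.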
